A study of Mus musculus with 6 samples.

Results

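Small leucine-rich proteoglycans (SLRPs) are secreted matrix proteins, and 9 of their genes are described here in heart tissue after myocardial infarction (MI): Dcn, Bgn, Lum, Fmod, Ogn, Aspn, Prelp, Omd and Podn. They were chosen by name as members of the family and found by their Ensembl gene identifiers in a table of raw counts for 38293 genes. All 9 passed the filter on low counts, among 14746 genes that were tested. RNA came from 3 Zeb2 fl/fl hearts and 3 Zeb2 cKO hearts, all taken 14 days after the left anterior descending coronary artery had been tied off for good. Both groups carry floxed Zeb2 alleles according to the methods, the labels give a backcrossed C57BL/6J strain, and WT is the label of the Zeb2 fl/fl group. Zeb2 cKO mice also carry a Cre recombinase that the Myh6 promoter drives in cardiomyocytes, so ZEB2, a zinc finger transcription factor, is deleted in these cells and not in fibroblasts. The methods give male mice of 8 to 9 weeks for all experiments and 8 to 10 weeks for MI surgery. The labels place the tissue in the border region of the infarct, while the methods name the remote zone. The tissue was not sorted, so fewer cells of a type and less RNA per cell cannot be told apart in the values that follow.

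SLRPs share a core of leucine-rich repeats that folds into a curved solenoid, and most members carry chondroitin, dermatan or keratan sulfate chains. They bind collagen fibrils and limit how fibrils grow and fuse, and several of them bind growth factors such as TGF-β or, once released from the matrix, act on Toll-like receptors. In the heart they are made mainly by fibroblasts, and the scar and its surroundings are rich in them after an infarct. Decorin (Dcn), biglycan (Bgn) and asporin (Aspn) form class I. Lumican (Lum), fibromodulin (Fmod), PRELP (Prelp) and osteomodulin (Omd) belong to class II, osteoglycin (Ogn) to class III and podocan (Podn) to class V.

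At 14 days after MI all 9 genes were detected in every library, and Dcn was the most abundant of them in each of the 6 hearts per length of its combined exons. All 9 had a lower mean in Zeb2 cKO than in Zeb2 fl/fl hearts, and 0 of 9 passed an adjusted p of 0.05. The lower means rested on a single heart: Zeb2 fl/fl replicate 2 had the highest level of the 6 libraries for each of the 9 genes, from 1.91 times the median of the other 5 for Podn to 15.9 times for Fmod. Without that library the log2 fold changes lay between -0.09 and 0.32.

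The series was sequenced to 37.3 to 51.1 M counts per library, and mitochondrially encoded genes took 60.55% to 67.03% of them. Zeb2 fl/fl replicate 2 had the lowest total and the lowest mitochondrial share. Over all tested genes its log2 CPM correlated with the other libraries at r = 0.935 to 0.953, while pairs among the other 5 reached at least 0.981, across genes that are not independent replicates. Zeb2 itself had 61.3, 116.05 and 71.9 CPM (read counts divided by the TMM library size) among Zeb2 fl/fl hearts, against 59.6, 72.6 and 66.5 CPM among Zeb2 cKO hearts, with a log2 fold change of -0.33 ± 0.25 (SE). Replicate 2 was the highest here too, and without it the log2 fold change of Zeb2 was -0.0058. The groups overlapped for Zeb2 in this tissue of mixed cells.

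Of the 9 loci, 7 lie in 3 clusters of the family, and the coordinates that follow are those of build GRCm38. On chromosome 10, Dcn (chr10:97479609-97518143, plus strand) and Lum (chr10:97565128-97572703, plus strand) are followed by the family genes Kera and Epyc within 202.8 kb. On chromosome 13, Ecm2, Aspn (chr13:49544443-49567565), Omd (chr13:49582462-49592822) and Ogn (chr13:49608046-49624501) stand in a row on the plus strand within 119.7 kb. On chromosome 1, Optc, Prelp (chr1:133910304-133921414, minus strand) and Fmod (chr1:134037254-134048277, plus strand) lie within 151.1 kb. No protein-coding gene outside the family (0 in each cluster) lies wholly inside these stretches. Bgn (chrX:73483602-73495933, plus strand) and Podn (chr4:108014791-108096445, minus strand) stand apart from these clusters. The whole chromosome 13 cluster sits within the span of Cenpp, a kinetochore gene on the opposite strand, and Aspn shares 7 exon bases with it. Prelp shares 350 exon bases with the antisense gene Gm15851, which matches 9.82% of its longest transcript and had 0 counts in all 6 libraries.

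**Figure D1:**
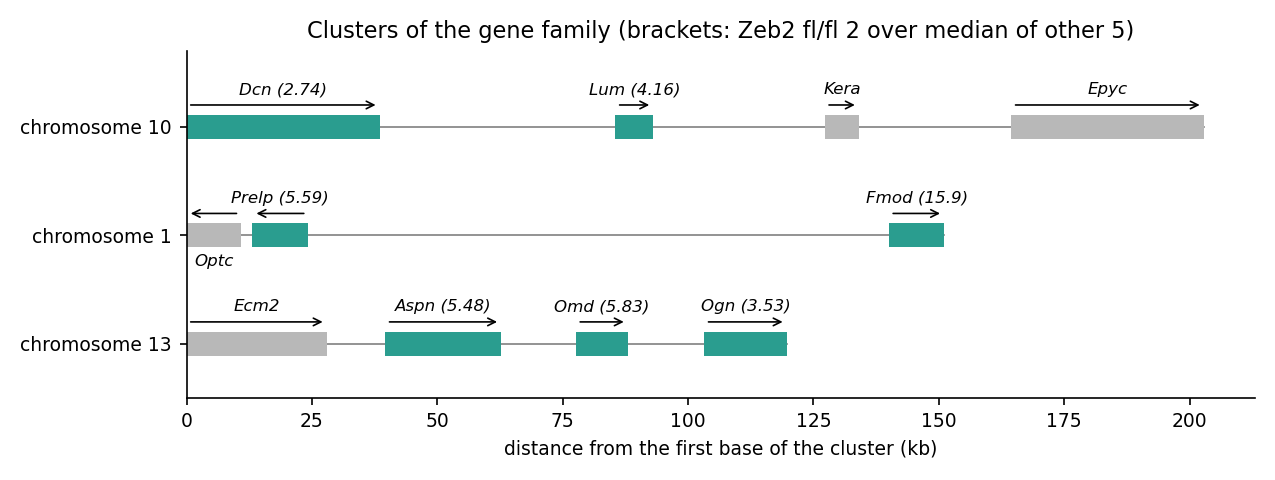
The 3 clusters that hold several family genes, drawn to scale as distance in kb from the first base of each cluster, with arrows for the direction of transcription. Green bars are the 7 clustered genes of the set described here, grey bars are other family genes, and the number in brackets is the CPM of Zeb2 fl/fl replicate 2 divided by the median of the other 5 libraries, from 2.74 for Dcn to 15.9 for Fmod.

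RefSeq promoter sequences of the GRCm38.p6 build were found for 7 of the 9 genes, and Dcn and Lum had no entry in the table used. In the 250 bases before each start, both strands were searched for the E-box CACCTG that ZEB proteins bind, the E-box CAGCTG, the TATA box TATAAA and the AP-1 motif TGANTCA. The ZEB motif CACCTG was in 0 of the 7 windows, and 17.1% of the 27025 promoters in the table hold it. TGANTCA was likewise in 0 of 7, against 6.87% of all promoters. With 7 windows, 0 matches cannot show a lack of either motif beyond these shares, and this was not tested. Only the full motifs were searched, so shorter forms of CACCTG were not counted. CAGCTG was in Bgn and Ogn (12.8% of all promoters), and TATAAA was in Ogn and Aspn (13.0% of all promoters). The 3 neighbours of chromosome 13 and Bgn are printed to show how unlike these windows are, with 30.0% G and C bases in Aspn, 38.4% in Omd, 42.0% in Ogn and 64.4% in Bgn. All 4 windows read 5′ to 3′ on the plus strand, at chr13:49544193-49544442 for Aspn, chr13:49582212-49582461 for Omd, chr13:49607765-49608014 for Ogn and chrX:73483351-73483600 for Bgn. Capitals mark matches to TATAAA or CAGCTG on either strand, and the run TTTATAAA in Ogn holds 2 overlapping matches.
Aspn: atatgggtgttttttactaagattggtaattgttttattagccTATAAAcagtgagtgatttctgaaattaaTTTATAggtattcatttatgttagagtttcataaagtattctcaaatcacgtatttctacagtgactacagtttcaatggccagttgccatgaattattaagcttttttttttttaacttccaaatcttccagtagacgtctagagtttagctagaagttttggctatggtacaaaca
Omd: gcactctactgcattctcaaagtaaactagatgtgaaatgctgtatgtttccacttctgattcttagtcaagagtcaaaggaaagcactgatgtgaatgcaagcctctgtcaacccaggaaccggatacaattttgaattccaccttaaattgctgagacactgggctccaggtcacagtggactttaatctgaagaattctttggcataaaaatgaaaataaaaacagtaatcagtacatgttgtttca
Ogn: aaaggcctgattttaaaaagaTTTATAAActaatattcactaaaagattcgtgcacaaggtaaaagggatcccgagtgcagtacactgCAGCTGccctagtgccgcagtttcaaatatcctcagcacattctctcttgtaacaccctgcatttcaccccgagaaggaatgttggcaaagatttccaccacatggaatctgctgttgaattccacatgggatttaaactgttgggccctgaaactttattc
Bgn: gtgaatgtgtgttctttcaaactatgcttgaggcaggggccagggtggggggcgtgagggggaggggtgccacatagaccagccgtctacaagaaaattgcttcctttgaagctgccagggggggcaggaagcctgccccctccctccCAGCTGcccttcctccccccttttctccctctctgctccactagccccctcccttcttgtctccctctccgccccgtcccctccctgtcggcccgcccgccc
A match is a description of these letters only.

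Class I holds the most abundant member and its closest relatives. In the order of the replicates, decorin, which carries a single glycosaminoglycan chain and binds collagen and TGF-β, had 286, 1100.4 and 435 CPM among Zeb2 fl/fl hearts, against 491, 381 and 402 CPM among Zeb2 cKO hearts. Its highest value was Zeb2 fl/fl replicate 2 and its lowest was Zeb2 fl/fl replicate 1, so the control hearts enclosed all 3 Zeb2 cKO hearts. The group means were 607 ± 434 and 425 ± 58.4 CPM (SD, n = 3 each), and the log2 fold change was -0.52 ± 0.48 (SE, unadjusted p = 0.316 and adjusted p = 0.957, edgeR quasi-likelihood, Benjamini-Hochberg).

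Biglycan, the relative of decorin that can signal through Toll-like receptors once it is soluble, had 107, 697 and 157 CPM among Zeb2 fl/fl hearts, against 105, 113 and 169 CPM among Zeb2 cKO hearts. Apart from Zeb2 fl/fl replicate 2, both groups covered nearly the same range. The means were 320.5 ± 327 and 129 ± 35.1 CPM (SD, n = 3 each) and the log2 fold change was -1.32 ± 0.69 (SE, unadjusted p = 0.0987 from edgeR).

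Asporin, which has a stretch rich in aspartate and competes with decorin for collagen, had 49.3, 270.2 and 65.2 CPM among Zeb2 fl/fl hearts, against 48.0, 44.8 and 68.6 CPM among Zeb2 cKO hearts. The pattern resembled that of biglycan, with the high library among the controls and Zeb2 cKO replicate 3 the next highest. Its log2 fold change was -1.25 ± 0.63 (SE, unadjusted p = 0.0896 from edgeR).

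In class II the range of levels was wide. Lumican, a keratan sulfate proteoglycan of collagen fibrils, had 55.9, 362 and 88.8 CPM among Zeb2 fl/fl hearts, against 93.6, 73.4 and 86.8 CPM among Zeb2 cKO hearts. As for decorin, Zeb2 fl/fl replicate 1 was the lowest of all 6 hearts and replicate 2 the highest. The log2 fold change was -0.995 ± 0.65 (SE, unadjusted p = 0.171 from edgeR).

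Fibromodulin, which binds collagen I at a site it shares with lumican, showed the most uneven values. It had 3.19, 55.0 and 3.46 CPM among Zeb2 fl/fl hearts, against 2.94, 3.57 and 5.90 CPM among Zeb2 cKO hearts, which corresponds to 2414 counts in Zeb2 fl/fl replicate 2 and 120 to 317 counts in the other 5 libraries. Of the 14746 tested genes, 11 had a higher ratio of that library to the median of the other 5. The log2 fold change was -2.31 ± 1.12 (SE, unadjusted p = 0.0776 from edgeR), and the mean of the control group, 20.6 ± 29.8 CPM (SD, n = 3), was smaller than its SD.

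PRELP, which links the matrix to heparan sulfate of basement membranes, had 26.9, 153 and 30.6 CPM among Zeb2 fl/fl hearts, against 25.9, 27.3 and 29.5 CPM among Zeb2 cKO hearts. The 5 libraries other than Zeb2 fl/fl replicate 2 were within a factor of 1.18. Its log2 fold change was -1.35 ± 0.66 (SE, unadjusted p = 0.0805 from edgeR).

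Osteomodulin, a keratan sulfate proteoglycan best known from bone, had 1.27, 9.87 and 1.69 CPM among Zeb2 fl/fl hearts, against 1.90, 1.91 and 1.45 CPM among Zeb2 cKO hearts. Here too the control group held both the lowest and the highest heart. Its counts were 48 to 95 outside Zeb2 fl/fl replicate 2, where there were 433, and 8.54% of its longest transcript is nearly identical to sequence in transcripts of other genes, so part of its level is uncertain. The log2 fold change was -1.29 ± 0.76 (SE, unadjusted p = 0.132 from edgeR).

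Osteoglycin, also called mimecan, had 89.7, 338 and 95.7 CPM among Zeb2 fl/fl hearts, against 120.1, 109.8 and 84.0 CPM among Zeb2 cKO hearts. Zeb2 cKO replicates 1 and 2 lay above 2 of the 3 control hearts, and Zeb2 cKO replicate 3 was the lowest of all. Its log2 fold change was -0.74 ± 0.52 (SE, unadjusted p = 0.202 from edgeR). Podocan, a distant member known for restraining smooth muscle cell growth, had 3.53, 7.02 and 3.83 CPM among Zeb2 fl/fl hearts, against 3.58, 3.89 and 3.67 CPM among Zeb2 cKO hearts. It varied least, since its 5 other libraries were within a factor of 1.10 and Zeb2 fl/fl replicate 2 was not quite double their level. Its log2 fold change was -0.37 ± 0.28 (SE, unadjusted p = 0.221 from edgeR).

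**Figure D2:**
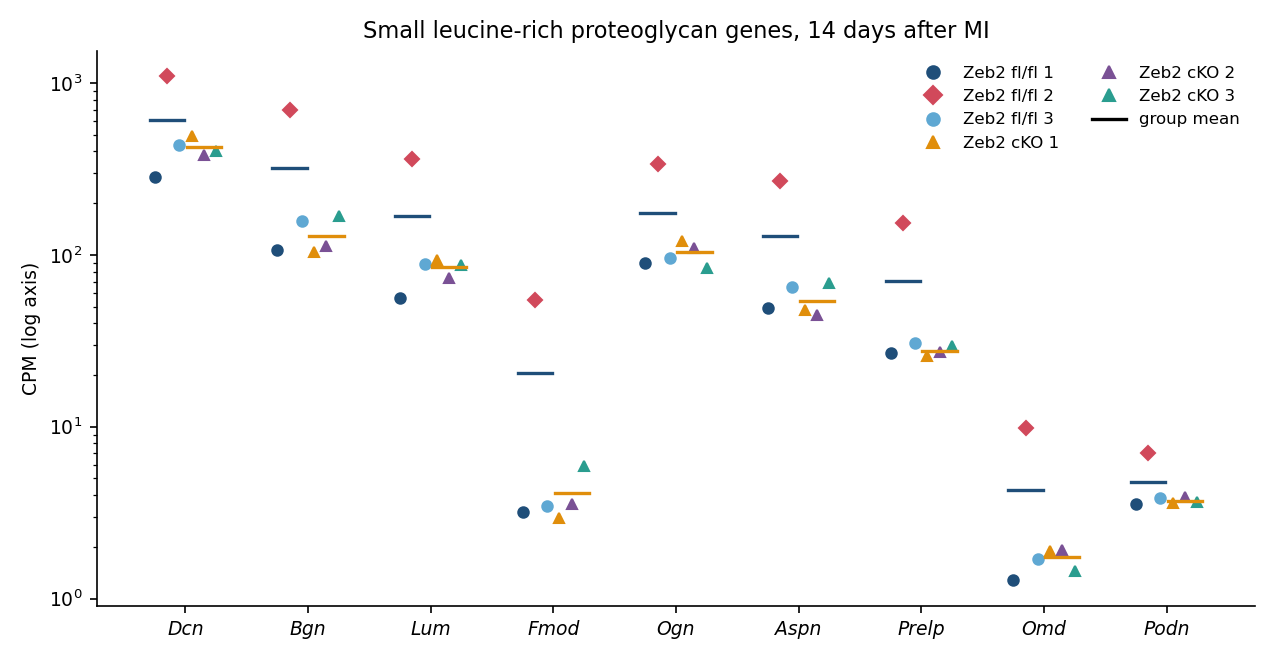
CPM of the 9 SLRP genes in each of the 6 libraries on a log axis, with circles or a diamond for Zeb2 fl/fl, triangles for Zeb2 cKO and a short line for each group mean. Zeb2 fl/fl replicate 2 (red diamond) is the highest point for every gene, and the other 2 Zeb2 fl/fl libraries lie among or near the Zeb2 cKO libraries.

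Across the family the adjusted p was 0.957 for each gene, and 0 of 9 were called among 14746 tested genes, of which 0.0% were called by edgeR after Benjamini-Hochberg adjustment. At an unadjusted p under 0.05, 0 of 9 passed in either direction, against 0.861% of all genes lower and 1.04% higher in Zeb2 cKO. A log2 fold change under -0.2 was seen for 9 of 9, against 22.6% of all genes, and one over 0.2 for 0 of 9, against 15.9%. Any value under 0 was seen for 9 of 9, against 51.4%. The median over the 9 genes was -1.25, and that over all tested genes was -0.0069. The groups overlapped for all 9, whereas 2.97% of all genes had all Zeb2 cKO libraries below all Zeb2 fl/fl libraries and 3.39% had them all above. An exact permutation test over samples, two-sided, gave p between 0.3 and 0.9, where the smallest p that 3 against 3 allows is 0.1.

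Zeb2 fl/fl replicate 2 was the highest library for 9 of 9 genes, against 35.2% of all tested genes, and was at least 2-fold over the median of the other 5 for 8 of 9, against 9.75% of all genes. With this library left out, the log2 fold change was 0.24 (standard error 0.20) for Dcn, -0.03 (0.24) for Bgn, -0.09 (0.20) for Aspn, 0.23 (0.20) for Lum, 0.32 (0.29) for Fmod, -0.06 (0.11) for Prelp, 0.24 (0.23) for Omd, 0.18 (0.16) for Ogn and 0.015 (0.14) for Podn. The sign turned for 6 of the 9 genes and the other 3 came close to 0. None was called (0 of 9, edgeR, adjusted p = 0.9997) or had an unadjusted p under 0.05 (0 of 9, against 2.63% of all genes). The groups still overlapped for all 9, where 7.48% of all genes lay lower and 8.07% higher in Zeb2 cKO without overlap. After leaving out this library, 0 of 9 were under -0.2 against 11.7% of all genes, 4 of 9 were over 0.2 against 14.2%, and the median was 0.18 beside 0.0025 over all genes.

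**Figure D3:**
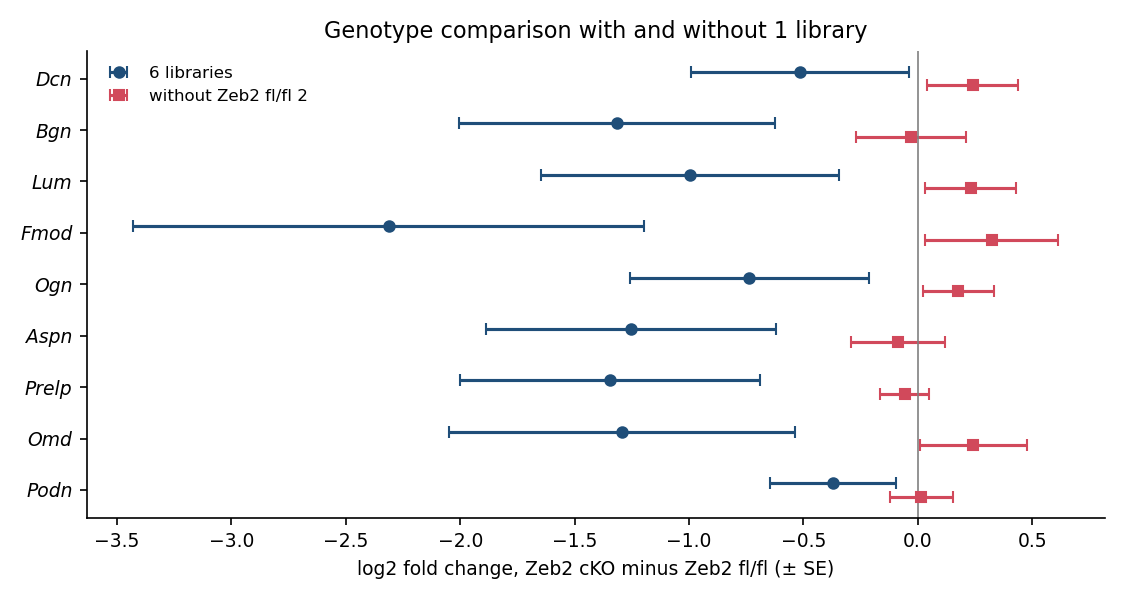
Log2 fold change of the 9 SLRP genes, Zeb2 cKO minus Zeb2 fl/fl, with standard error bars, from the fit of all 6 libraries (blue circles) and without Zeb2 fl/fl replicate 2 (red squares). The blue points lie between -2.31 and -0.37 and the red points between -0.09 and 0.32.

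To compare levels between genes, CPM was divided by the length of a gene's exons in kb (FPKM, the count scaled to library size and to exon length). The mean over 6 libraries was 88.4 FPKM for Dcn, 54.4 for Ogn, 51.8 for Lum, 38.7 for Aspn, 36.8 for Bgn, 13.5 for Prelp, 3.73 for Fmod, 1.34 for Omd and 0.996 for Podn. The medians, on which the high library weighs less, were 71.7 FPKM for Dcn, 40.1 for Ogn, 35.9 for Lum, 24.3 for Aspn, 22.1 for Bgn, 7.86 for Prelp, 1.06 for Fmod, 0.798 for Omd and 0.878 for Podn. All 3 class I genes were among the upper 5 by either measure, whereas class II ranged from Lum down to Omd, and the bottom pair changed places between mean and median. Among 14573 tested genes with a known length, Dcn ranked 138 by mean FPKM, Ogn 217, Lum 235, Aspn 307, Bgn 318 and Prelp 971, while Fmod ranked 3882, Omd 8261 and Podn 9357. These ranks use means that the high library raises, most of all for Fmod. Without Zeb2 fl/fl replicate 2 the mean of Fmod was 1.12 FPKM, and ranks without that library are not given.

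The order was tested between neighbours within each library, with 8 pairs and an exact two-sided permutation of signs over the 6 libraries, whose smallest p is 0.03125. The pairs were taken from the order of the means itself. Dcn was above Ogn in 6 of 6 libraries by 0.75 ± 0.25 on the log2 scale (mean ± SD), Lum above Aspn by 0.45 ± 0.28 and Aspn above Bgn by 0.12 ± 0.11. Bgn was above Prelp by 1.43 ± 0.21, Prelp above Fmod by 2.55 ± 0.67 and Fmod above Omd by 0.84 ± 0.71. Each of these 6 differences had the same sign in 6 of 6 libraries and an adjusted p = 0.0417 in this exact permutation test. Their unadjusted p was the smallest possible, 0.03125, in pairs ordered by the same values. The calls therefore show a constant sign over the libraries and no more. Ogn and Lum did not differ beyond their spread (0.20 ± 0.33, Ogn higher in 4 of 6, exact permutation p adjusted 0.25), and neither did Omd and Podn (0.02 ± 0.71, Omd higher in 2 of 6, adjusted p = 0.969, same test).

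The calls in this order depend on what counts as the length of a gene. Bgn has 8 annotated transcripts and 6099 bases in the union of its exons, but 2666 in its longest transcript. With the longest transcript Bgn was at 84.3 FPKM, second after Dcn, and Aspn was at 39.1 FPKM. The order of Aspn and Bgn was thus reversed, and its call above rests on the chosen length. With this length 0 of the 8 pairs passed an adjusted p of 0.05. Dcn had the highest mean with either length, but with the longest transcript it was above Bgn in 5 of 6 libraries. In 4 pairs the difference still had the same sign in 6 of 6 libraries, at 0.44 ± 0.28 on the log2 scale for Lum over Aspn, 1.57 ± 0.19 for Aspn over Prelp, 2.47 ± 0.67 for Prelp over Fmod and 0.93 ± 0.71 for Fmod over Omd. Their exact permutation p was again the smallest possible, 0.03125, and the adjusted p was 0.0625 because fewer pairs reached it.

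**Figure D4:**
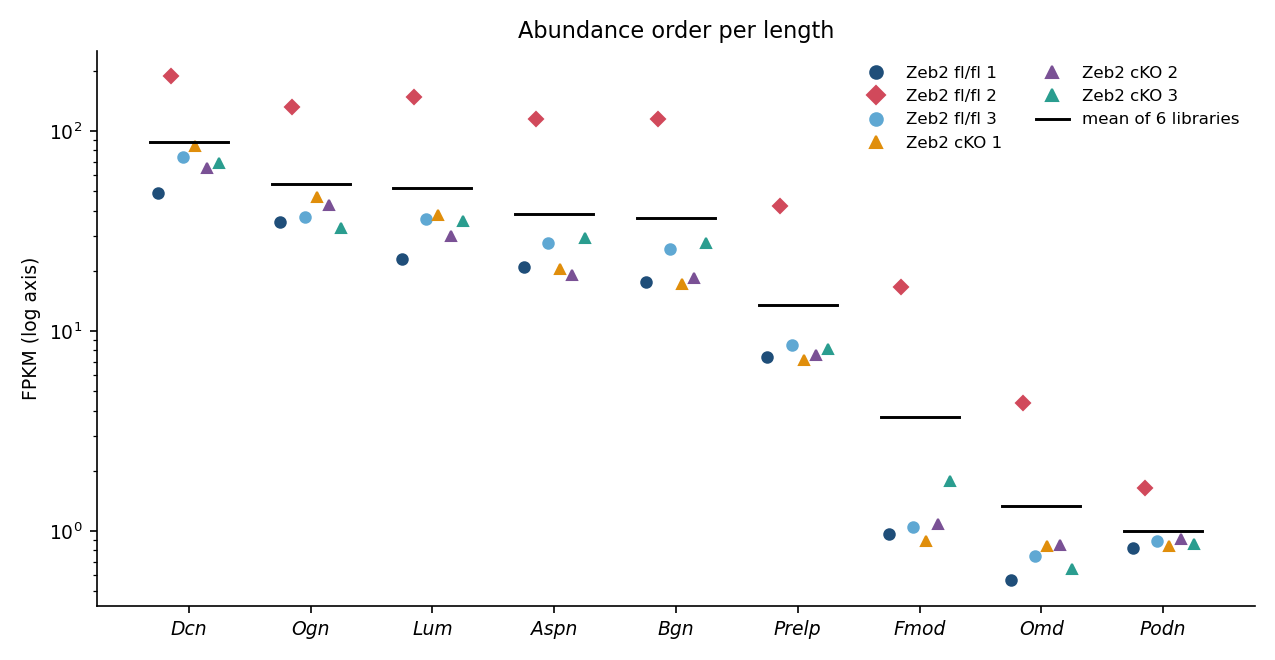
FPKM of the 9 genes in each library on a log axis, in the order of their mean (black line). Dcn leads with a mean of 88.4 FPKM and Podn is last with 0.996, and Zeb2 fl/fl replicate 2 (red diamond) is the highest library throughout.

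Within each genotype the order of the means was the same apart from 2 pairs of neighbours. Lum led Ogn in the Zeb2 fl/fl means (68.9 ± 68.5 and 68.0 ± 55.1 FPKM, SD, n = 3), while Ogn led Lum in the Zeb2 cKO means (40.8 ± 7.24 and 34.6 ± 4.198 FPKM, SD, n = 3). Omd led Podn in Zeb2 fl/fl (1.90 ± 2.15 and 1.12 ± 0.453 FPKM), and Podn led Omd in Zeb2 cKO (0.869 ± 0.0384 and 0.780 ± 0.117 FPKM). These are the pairs that did not differ beyond their spread over the 6 libraries.

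The composition of the family differed in the high library. Dcn made up 24.7% of the summed FPKM of the 9 genes in Zeb2 fl/fl replicate 2 and 31.6% to 38.9% in the other 5. Fmod made up 2.18% there and 0.411% to 0.869% in the others, and Podn 0.216% there and 0.387% to 0.533% in the others. So the genes were not higher by a common factor in this heart. Relative to Dcn in the same library, the FPKM of Bgn was 0.358, 0.607 and 0.345 in the Zeb2 fl/fl hearts and 0.204, 0.284 and 0.402 in the Zeb2 cKO hearts. The ratios of the 8 other genes to Dcn overlapped between the genotypes, with an exact permutation p (two-sided) of at least 0.2 and an adjusted p of at least 0.571.

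How the members moved together was described by Pearson's r of log2 CPM for the 36 pairs of genes. Over 6 libraries the median r was 0.960 (0.882 to 0.997), and without Zeb2 fl/fl replicate 2 it was 0.293 (-0.694 to 0.971), with 8 pairs below 0. The pairs share libraries and depth, and 5 libraries are few. Among these 5, Dcn and Lum followed each other (r = 0.971), with Zeb2 cKO replicate 1 the highest and Zeb2 fl/fl replicate 1 the lowest for both. Bgn, Aspn and Prelp formed another group (r = 0.958 for Bgn and Aspn, 0.936 for Bgn and Prelp, 0.878 for Aspn and Prelp), with Zeb2 fl/fl replicate 3 and Zeb2 cKO replicate 3 the highest. Ogn went with Omd (r = 0.853) and against Aspn (r = -0.694), Fmod (-0.673), Bgn (-0.652) and Prelp (-0.621). Aspn, Omd and Ogn are nonetheless neighbours on the chromosome. The groups were not sharply apart, since Omd also went with Dcn (r = 0.761) and Lum (0.626). Fmod likewise went with Bgn (0.778) and Aspn (0.693).

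The genes most like the mean of the 9 over the 6 libraries were Crispld2 (r = 0.9996), Fcrls (0.9994), Medag (0.9994), Ism1 (0.9990) and Fcgr3 (0.9989), of 14737 genes compared. All 5 were highest in Zeb2 fl/fl replicate 2, and without it their r was between 0.948 and 0.986. An r over 0.95 was reached by 1125 genes with that library and by 138 without it.

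Genes next to the members but outside the family did not share the high library to the same degree. Ecm2, a family gene at the start of the chromosome 13 cluster, was at 2.55 times the median of the other 5 in Zeb2 fl/fl replicate 2, whereas Cenpp, which spans the cluster, was at 0.782 times and Nol8, a nucleolar protein gene beside it, at 0.966 times. Beside the other loci, Btg1 was at 1.43 times, Btg2 at 0.606, Haus7 at 0.686, Scp2 at 0.765 and Echdc2 at 0.554. Of the other 8 family genes, Ecm2, Tsku and Epyc were tested, with log2 fold changes of -0.57, -0.66 and 0.25 and, without that library, 0.02, -0.12 and 1.01 (0 of 3 with an adjusted p under 0.05). Kera, Optc, Nyx, Podnl1 and Chad had at most 49 counts in any library and were not tested.

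The collagens that SLRPs bind showed the same picture. Of 11 genes for collagens of fibrils and beaded filaments 10 were tested, and all 10 were highest in Zeb2 fl/fl replicate 2. All 10 also had a log2 fold change under -0.2, with a median of -1.29 that became -0.01 without it. Col1a1 had 122, 725 and 129 CPM among Zeb2 fl/fl hearts, against 85.4, 106 and 161 CPM among Zeb2 cKO hearts, and Col3a1 had a log2 fold change of -1.48 ± 0.75 (SE). Collagens and SLRPs therefore shared the high heart, and 0 of the 10 collagens passed an adjusted p of 0.05.

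Enzymes that build and sulfate the glycosaminoglycan chains varied less. Of 24 tested genes (of 26), 10 had a log2 fold change under -0.2 and 2 over 0.2, with a median of -0.15, and 17 were highest in Zeb2 fl/fl replicate 2. Without that library 2 of 24 were under -0.2 and the median was 0.0067. Xylt1, which starts the chain on the core protein, had 1.54, 3.14 and 1.77 CPM among Zeb2 fl/fl hearts, against 0.939, 1.15 and 1.49 CPM among Zeb2 cKO hearts. These groups did not overlap, but the adjusted p was 0.957 (unadjusted p = 0.0382, edgeR, log2 fold change -0.85, standard error 0.33). Chpf, which helps to extend chondroitin, had a log2 fold change of -0.56 ± 0.31 (SE). Without Zeb2 fl/fl replicate 2 these values were -0.47 ± 0.25 for Xylt1 and -0.15 ± 0.19 for Chpf.

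Of 11 growth factors and receptors that SLRPs bind, 9 had a log2 fold change under -0.2 and 1 over 0.2, and 8 were highest in Zeb2 fl/fl replicate 2 (median log2 fold change -0.45, and -0.06 without it). Tgfb3 had 18.4, 99.3 and 20.1 CPM among Zeb2 fl/fl hearts, against 15.9, 18.3 and 21.4 CPM among Zeb2 cKO hearts, and Lrp1, an endocytic receptor of decorin, had a log2 fold change of -0.72 ± 0.37 (SE). Of 8 tested proteases (of 9) that cut SLRPs, 6 were under -0.2, among them Mmp2 at -0.85 (standard error 0.53) and Mmp13 at -0.57 (0.29), and 7 of 8 were highest in Zeb2 fl/fl replicate 2. Without it 2 of 8 were under -0.2 and the median log2 fold change went from -0.54 to 0.025. Mmp2 was then at 0.09 (standard error 0.13) and Mmp13 at -0.59 (0.34). Mmp13 had only 15 to 25 counts per library, so its values are uncertain. In neither list did a gene pass an adjusted p of 0.05 (0 of 11 and 0 of 8, edgeR).

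Markers of cell types moved with the high library. All 8 activated fibroblast markers were highest in Zeb2 fl/fl replicate 2, their summed CPM was 472 to 2475 in the Zeb2 fl/fl hearts and 319 to 790.1 in the Zeb2 cKO hearts, and Ltbp2, a matrix protein of this list, had a log2 fold change of -1.95 ± 0.82 (SE, adjusted p = 0.957, edgeR). Of 8 fibroblast markers 6 were highest there, with summed CPM of 204 to 724 and 226 to 271, while the fibroblast marker Scara5 was lowest there, at 5.10 CPM. All 8 macrophage markers were highest there as well, at summed CPM of 190.1 to 753 and 227 to 259. Cardiomyocyte markers went the other way, with 0 of 8 highest in that heart and a summed CPM of 33672 there, against 53684 to 65418 in the other 5. The medians of these lists without Zeb2 fl/fl replicate 2 were log2 fold changes of -0.07, 0.14, 0.088 and -0.06, in the same order. No marker of these 4 lists was at 0 in any library, and the part of cell composition in the levels of the SLRPs was not tested.

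For endothelial markers 3 of 8, for smooth muscle and pericyte markers 2 of 8, for mesothelial markers 4 of 6 and for tested cartilage and tendon markers 4 of 5 were highest in Zeb2 fl/fl replicate 2. Their median log2 fold changes were 0.15, 0.14, 0.05 and -1.13, and without that library they were 0.02, 0.08, 1.10 and 0.04. The mesothelial value of 1.10 rests mostly on low counts. In Zeb2 fl/fl replicates 1 and 3, Krt19 had 3 and 4 counts, Upk1b 9 and 12, Lrrn4 9 and 9 and Msln 29 and 24. The mesothelial marker Wt1, with 181 and 98 counts there, was at -0.13. Acan, the large cartilage proteoglycan, was at 3.12 CPM in Zeb2 fl/fl replicate 2 and at 0.060 to 0.346 CPM in the other 5. In all lists together 0 genes passed an adjusted p of 0.05.

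**Figure D5:**
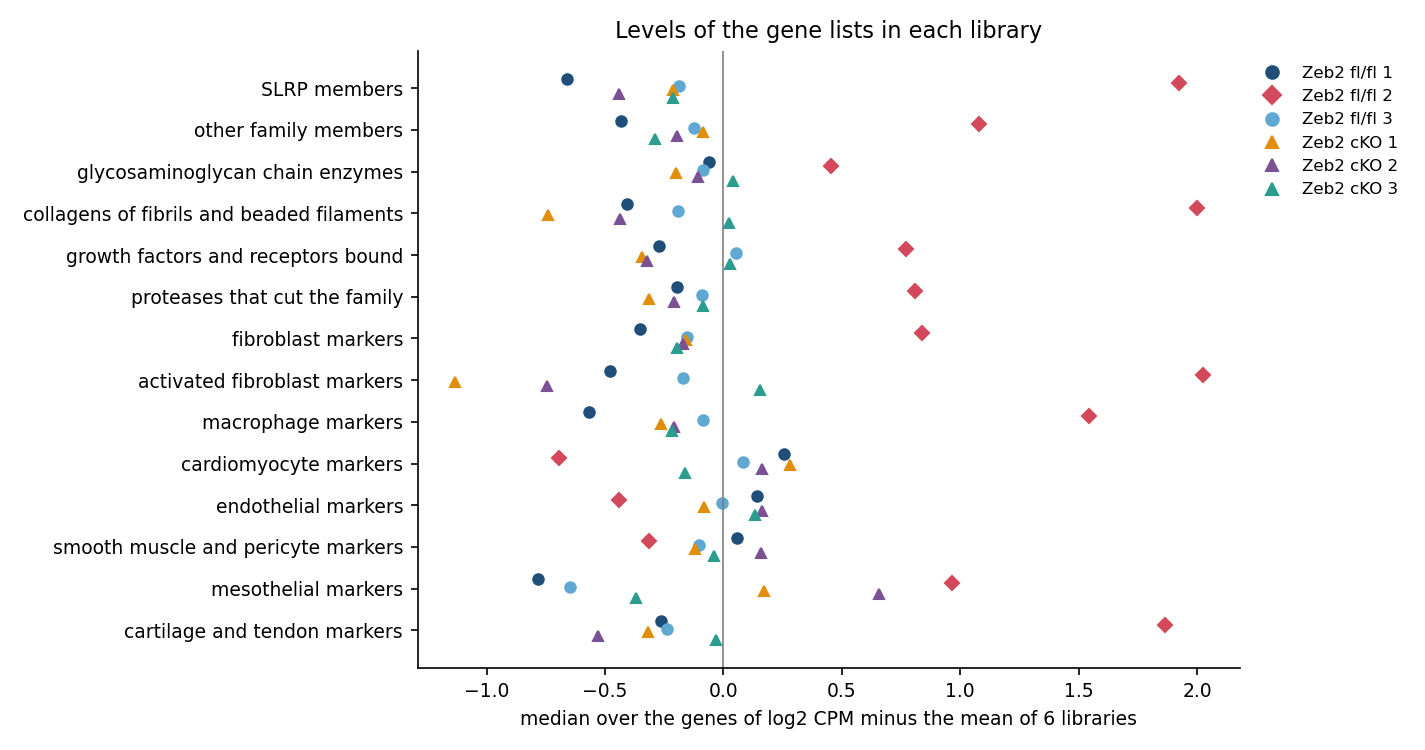
For each list of genes, the median over its genes of log2 CPM minus that gene's mean over the 6 libraries, 1 point per library, on a linear axis of log2 units. Zeb2 fl/fl replicate 2 (red diamond) lies far to the right for SLRPs, collagens, activated fibroblast and macrophage markers and to the left for cardiomyocyte markers.

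Set against Pdgfra, a receptor that marks fibroblasts, the SLRPs of Zeb2 fl/fl replicate 2 still differed from each other. The ratio of CPM to that of Pdgfra was 10.4 for Dcn in this heart and 6.92 to 9.38 in the other 5. For Bgn it was 6.60 against 2.00 to 3.69, and for Fmod 0.520 against 0.0561 to 0.129. For Ogn it was 3.19 against 1.84 to 2.29, while for Podn it was 0.0664 against 0.0683 to 0.0854. Podn thus stayed just below the range of the other hearts on this scale, and the other members named here lay above it.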

How the data were processed

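Hearts of 3 control mice (Zeb2 fl/fl) and 3 Zeb2 cKO mice were assigned to their group and replicate by the labels, which give the animals no batch. The authors deposited raw counts per gene from stranded libraries depleted of ribosomal RNA, aligned and counted on Gencode M4 (GRCm38) with the STAR workflow; the handling of strand and of reads with several matches is not given in the sources used here. From these counts, CPM used TMM library sizes, the groups were compared with glmQLFit and glmQLFTest in edgeR 4.0.16 after filterByExpr, and p-values were adjusted over all genes tested. The authors used DESeq; DESeq2 1.42.0 was run as an alternative. FPKM used the union of exons of Gencode M21. Errors are the SD between mice or the SE of the fit; at 37.3 to 51.1 M counts, counting error matters for genes of few counts. The members, the gene lists and the rule for named genes (all members, their chromosome neighbours, the 2 smallest p-values of each list, the highest marker and the 5 most alike genes, not all of them printed) were chosen with earlier results of these data known. Alternatives covered normalization, filter, test, dispersion, replicate numbers, mitochondrial genes, gene length and leaving out each library. Protein sequences were not used here.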

Additional observations from a re-analysis of the deposited data

How the results depend on the processing

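In every setting 0 of the 9 SLRP genes passed an adjusted p of 0.05. At an unadjusted p under 0.05, 6 of them did so without Zeb2 fl/fl replicate 1 (1134 of all genes) and 2 without replicate 3 (379 of all genes). In both of these fits the high Zeb2 fl/fl replicate 2 weighed more in the control mean. With no filter on low counts 3 did so (600 of all genes), and with DESeq2 2 did (361 of all genes), which gave no p for Fmod. The number of genes tested differed between settings, for example 14746 as reported and 14966 without Zeb2 fl/fl replicate 2. These gene counts are therefore not shares that can be compared. Over all genes, edgeR called 0 in each setting and DESeq2 called 2, and 280 had an unadjusted p under 0.05 with edgeR as reported (122 to 1134 over its alternatives). Leaving out single libraries moved the median log2 fold change of the 9 genes between -1.64 and 0.18, where 0.18 is the value without Zeb2 fl/fl replicate 2. That setting also reversed Dcn to 0.24, Lum to 0.23, Fmod to 0.32, Ogn to 0.18, Omd to 0.24 and Podn to 0.015, and it moved the median r between members to 0.293. Single-library ranges were -0.85 to 0.24 for Dcn, -1.73 to -0.03 for Bgn, -1.41 to 0.23 for Lum, -2.82 to 0.32 for Fmod, -1.05 to 0.18 for Ogn, -1.64 to -0.09 for Aspn, -1.73 to -0.06 for Prelp, -1.72 to 0.24 for Omd and -0.55 to 0.015 for Podn. Each other setting kept the sign of all 9. In the abundance order, 0 pairs were called with the longest transcript, and 0 when any 1 library was left out, since 5 libraries cannot give an exact permutation p under 0.0625. Without mitochondrially encoded genes the FPKM rose on a common scale, to 244 for Dcn and 2.76 for Podn, and the order was the same.

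Replicate numbers occur in both groups, but same-numbered libraries did not deviate together (r of deviations from the group means 0.0878, -0.137 and -0.0869 for numbers 1, 2 and 3, across genes), so the numbers were not taken as pairs. With the replicate number as a block the median log2 fold change was -0.69, 0 genes were called and 247 had an unadjusted p under 0.05.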
